A study of Mus musculus with 10 samples.

Results

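Complex I, the NADH:ubiquinone oxidoreductase, is the first enzyme of the mitochondrial respiratory chain. A matrix arm takes electrons from NADH through a flavin and a row of iron-sulfur clusters to ubiquinone, and a membrane arm pumps protons. Nuclear genes whose symbols begin with Nduf encode most of its subunits, the mitochondrial genome encodes the others, and a further set of proteins, the assembly factors, help to build the enzyme without staying in it. The genes described here are those whose symbol starts with Nduf in the array's annotation, taken from probe sets that list exactly 1 gene, with the probe set of the highest mean over the 10 arrays for each gene. They are 43 of the 19938 genes measured in this way, on 48 probe sets, since 5 genes had 2 each. By their known roles, 34 encode subunits and 7 encode Ndufaf assembly factors. The remaining 2 are Ndufa4, today counted with complex IV, and its relative Ndufa4l2.

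The arrays measured total RNA from bone marrow (BM) of mice transplanted with fetal liver hematopoietic stem cells (FL-HSCs), with 5 arrays for each of the VD(−) and VD(+) HSC recipient groups, and asked how vitamin D supply before birth marks the transferred cells. Donor embryos were CD45.2+ C57BL6, taken from dams on a vitamin D-deficient diet for VD(−) and on a vitamin D-sufficient diet for VD(+). The recipients of both groups were irradiated CD45.1+ C57BL6 mice, all vitamin D-sufficient, so that diet differed between the groups only on the donor side. In each group 3 arrays carried single samples, called replicates here, and 2 carried pools. Whether a pool holds RNA of the single mice is not given, so p-values speak only of the spread among arrays. The labels give mice of 8 weeks and both sexes, without the sex of each sample. Per the methods, recipients were 8 weeks old at transplant, so the BM was taken from older mice. The sources disagree on the time after transplant, and a labels field names BM macrophages where the source is BM. Unsorted BM also keeps recipient cells that survived irradiation, and fewer cells of a type and less RNA per cell cannot be told apart in it. The genes that mark erythroid and neutrophil cells were high in all 10 arrays, with mean log2 values over the lists from 9.76 to 10.02 and from 11.20 to 11.65.

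Several features of the arrays move with the groups. The mean log2 value of Y-linked genes was 6.64 in replicate 1 of VD(−) and 6.80 and 5.31 in its pools 1 and 2, whereas it did not pass 2.56 in the other 7 arrays. Xist, which is expressed in female cells, read 7.76, 8.14 and 9.83 in these 3 arrays and 10.08 to 10.33 in the other 7. Signal of male cells was thus seen in VD(−) arrays alone, so sex was not balanced between the groups. The 13 monocyte and macrophage markers were all higher in VD(−), with a median log2 fold change of 0.22 and list means of 7.90 to 8.30 in VD(−) against 7.48 to 7.94 in VD(+). All 9 measured mature B cell markers were lower, with a median of −0.28 and list means of 6.64 to 7.13 against 6.98 to 7.41. Of 8 stroma markers 7 were higher, with a median of 0.22 and list means of 6.08 to 6.36 against 5.76 to 6.17, lowest in VD(+) replicate 1 and highest in VD(−) pool 1. Of 6 adipocyte markers 4 were higher, with a median of 0.20, and their list mean was 5.19 to 5.62 in the 3 arrays with Y-linked signal, highest in VD(−) pool 1, and 4.48 to 5.02 in the other 7. Markers of skeletal muscle reached a list mean of 6.35 in VD(−) pool 2 and lay between 4.35 and 4.64 elsewhere. Their part in the results below was not tested, apart from the values given without the arrays concerned.

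Stretches of DNA before the start of 5 of these genes show what the control regions look like, since respiratory genes are known to share sites for the factors NRF1, ERR, GABP and YY1. They were read from RefSeq promoters (GRCm38.p6), in the 5′ to 3′ direction of each gene, and capitals mark the NRF1 core CGCATGCG. Ndufab1 and Ndufs8 are shown because they are the 2 subunit genes with the smallest p below, Ndufaf4 because it has the largest fold change, and Ndufa8 and Ndufa11 because they hold the NRF1 core. The stretches of Ndufab1 (chr7:122101849-122101968, minus strand), Ndufs8 (chr19:3912775-3912894, minus strand) and Ndufa8 (chr2:36049339-36049458, minus strand) are the 120 bases before the start. Those of Ndufaf4 (chr4:24897960-24897989, plus strand) and Ndufa11 (chr17:56717692-56717721, plus strand) are 30 bases around the match, since another gene overlaps the region before their start.
Ndufab1: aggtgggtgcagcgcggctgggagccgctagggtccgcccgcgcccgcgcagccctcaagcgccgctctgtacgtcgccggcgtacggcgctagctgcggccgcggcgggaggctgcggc
Ndufs8: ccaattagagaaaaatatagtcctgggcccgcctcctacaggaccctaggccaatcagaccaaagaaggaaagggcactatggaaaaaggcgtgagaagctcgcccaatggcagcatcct
Ndufa8: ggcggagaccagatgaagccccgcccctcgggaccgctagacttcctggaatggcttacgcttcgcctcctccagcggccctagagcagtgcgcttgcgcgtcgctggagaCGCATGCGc
Ndufaf4: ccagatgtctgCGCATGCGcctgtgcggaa
Ndufa11: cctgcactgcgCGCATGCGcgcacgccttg

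Of the 43 genes, 38 have a promoter entry, which runs from 250 bases before the start to 50 after it. The NRF1 core, which reads the same on both strands, was in 4 of these 38 (10.5%), Ndufa8, Ndufa11, Ndufaf4 and Ndufaf5, against 2.07% of all 27025 genes with an entry. The YY1 site AAGATGGCG, searched on both strands as the following ones were, was in 5 (13.2%), Ndufa9, Ndufc1, Ndufs4, Ndufs6 and Ndufs7, against 1.64% of all, and in each of the 5 it began 22 to 35 bases after the start. The ERR half-site AAGGTCA was in 2 (5.26%), Ndufb2 and Ndufs5, against 5.38% of all, and the GABP site CCGGAAGT was in 1 (2.63%), Ndufs3, against 4.31% of all. The letters of these motifs do not overlap in any member. The stretches of Ndufab1 and Ndufs8 printed above hold none of the 4 motifs in these letters. A match is a description of the sequence and shows no binding.

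The Nduf genes were slightly and almost uniformly higher in VD(−) HSC recipient BM, and none of them passed the test across all genes. The median log2 fold change, VD(−) less VD(+), was 0.12 over the 43 members and 0.001 over all 19938 genes, and 40 of the 43 lay above 0, where 50.3% of all genes did. Most members had a mean log2 value of 6 or more. Of all genes with a mean of 6 to 8, 57.5% lay above 0, and of those at 8 and above 57.4% did. At an adjusted p under 0.05 (limma, Benjamini-Hochberg adjustment over 35556 probe sets) 0 members were higher and 0 were lower, against 0.0602% and 0.0301% of all genes, and the smallest adjusted p of a member was 0.476. At a nominal p under 0.05 4 members were higher, Ndufab1, Ndufs8, Ndufaf3 and Ndufaf4, or 9.3% of the members against 4.05% of all genes, and none was in the other direction, where 2.95% of all genes were. The test named in the study's methods, run on the same values, gave 5 members at a nominal p under 0.05, these 4 and Ndufs7, and 0 after the adjustment. By an exact permutation test of 5 arrays against 5, unadjusted, 7 members were higher at p under 0.05, these 4 with Ndufs7, Ndufb7 and Ndufaf6, where 4.28% of all genes were. At the thresholds of the study's methods, a nominal p under 0.05 with a log2 fold change above 0.25, 3 members were higher, Ndufs8, Ndufaf3 and Ndufaf4, where 2.35% of all genes were. The members are not independent of each other, because all were measured in the same arrays and shift together from array to array, as the map of the members by array shows.

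**Figure D1:**
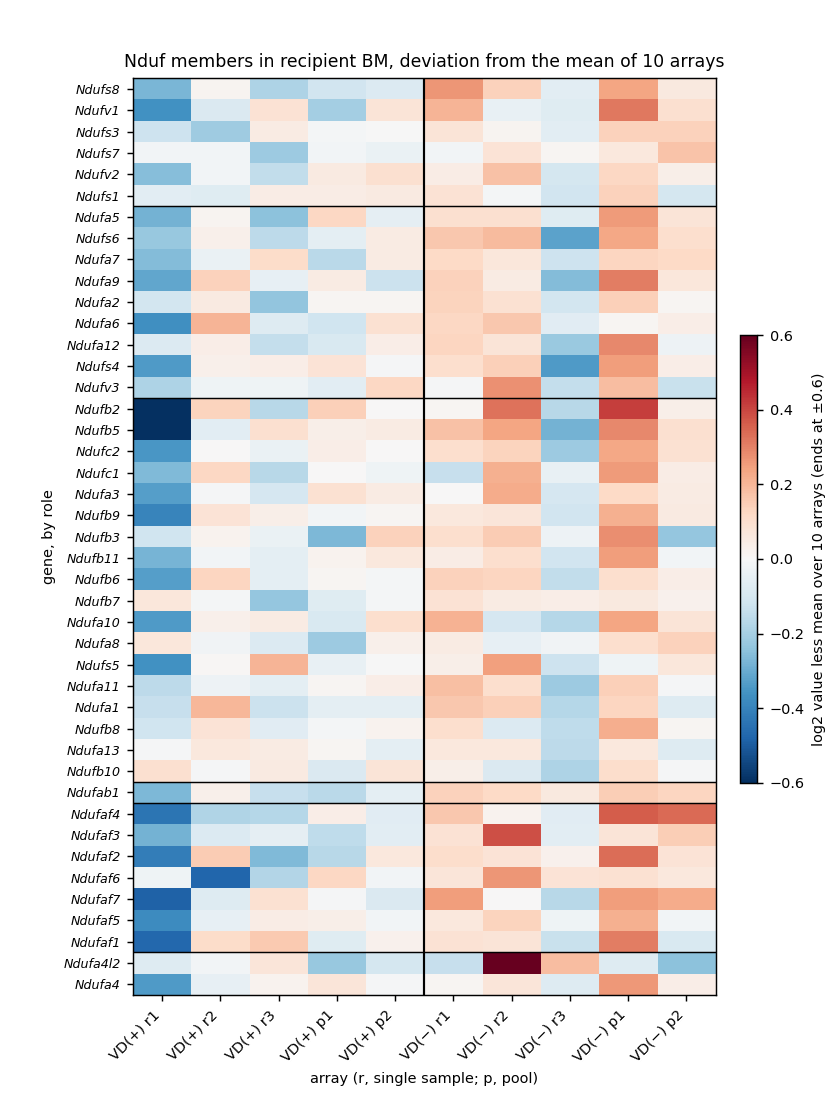
Deviation of each of the 43 Nduf genes from its own mean over the 10 arrays, on the log2 scale, with genes in rows grouped by role (core, matrix-arm, membrane-arm and carrier subunits, assembly factors, genes outside complex I) and arrays in columns. VD(+) replicate 1 was the lowest of the 10 arrays for 27 genes and VD(−) pool 1 the highest for 25. Over all 19938 genes these counts were 3339 and 2533.

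VD(+) replicate 1 held the lowest value of the 10 arrays for 27 of the 43 members. Over all 19938 genes it held the lowest value for 3339 and the highest for 3248, in both cases the most of any array. Its macrophage marker mean, 7.48, was the lowest as well. Its median over all probe sets, 4.77, lay within the range of the 10 arrays, 4.74 to 4.80, which normalization makes alike. VD(−) pool 1, one of the arrays with Y-linked signal, had the highest macrophage marker mean, 8.30. It held the highest value for 25 members and for 2533 of all genes. Within VD(−), replicate 3 was the lowest array for 36 members and for 4789 of all genes. The median over subunits was 0.11 with all arrays, 0.063 without VD(+) replicate 1, 0.041 without the 3 arrays with Y-linked signal and 0.15 without VD(−) replicate 3. The number of members above 0 was 39, 34 and 42 in these cases, and 32 with Y-linked signal as a covariate. Without the 3 arrays with Y-linked signal, which leaves 2 VD(−) arrays, none of the 4 members named above passed a nominal p under 0.05, and Ndufa4l2 did. All 4 passed it in each of the 10 fits that leave out 1 array.

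**Figure D2:**
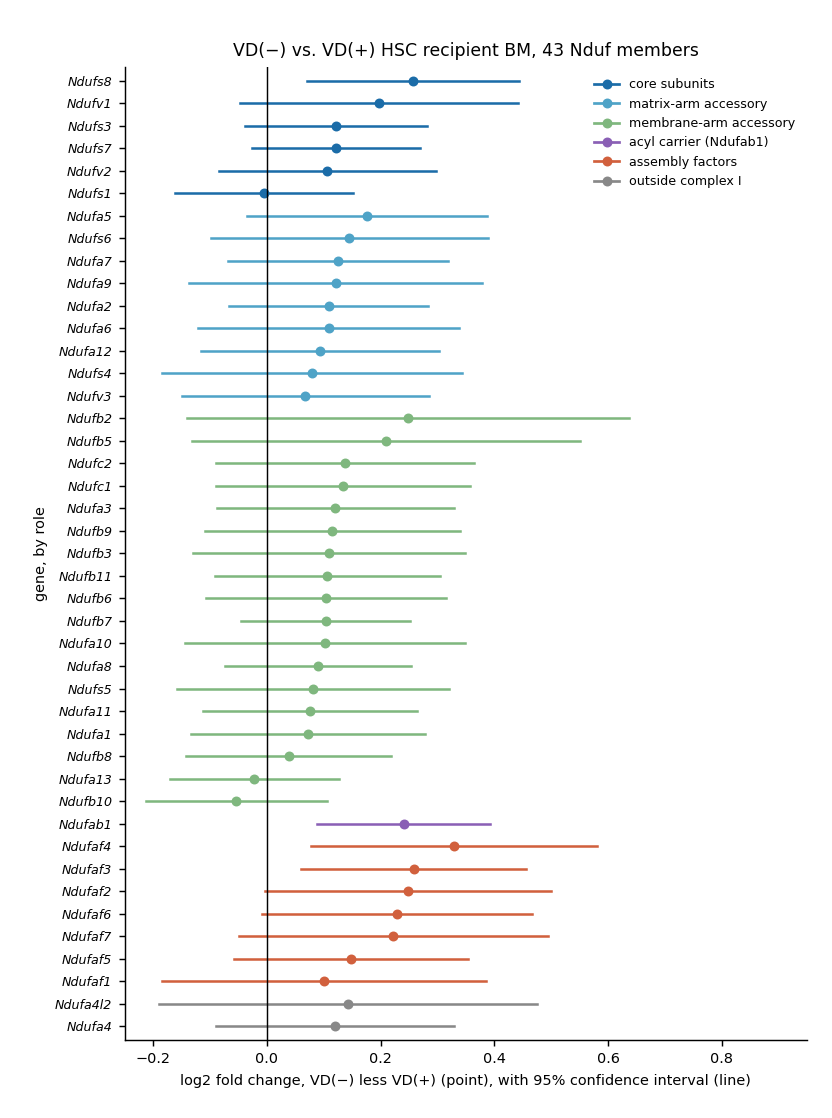
Log2 fold change of each Nduf gene, VD(−) less VD(+), as a point with its 95% confidence interval from limma as a line, with genes in rows coloured by role. The points of 40 of 43 genes lie right of 0, and the intervals of Ndufs8, Ndufab1, Ndufaf3 and Ndufaf4 do not reach 0.

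The core subunits carry the cofactors and are shared with bacterial forms of the enzyme. The 6 core genes among the members had a median log2 fold change of 0.12, and 5 of them lay above 0. Ndufs8, which holds iron-sulfur clusters close to the end of the electron path, had log2 values of 7.76, 8.05, 7.85, 7.92 and 7.95 in VD(+) and 8.30, 8.17, 7.97, 8.27 and 8.09 in VD(−), in the order replicates 1 to 3 and pools 1 and 2. The groups overlapped only through VD(+) replicate 2 and VD(−) replicate 3. Its log2 fold change was 0.26 (limma, adjusted p = 0.553, SE 0.084, n = 5 arrays a group, exact permutation p = 0.0159). Ndufv1, which binds NADH and the flavin, had a log2 fold change of 0.20 (SE 0.11). Without the arrays with Y-linked signal the log2 fold changes of Ndufs8 and Ndufv1 were 0.17 and 0.037. Ndufs7, which holds the last cluster before ubiquinone, read 7.69, 7.69, 7.49, 7.69 and 7.67 in VD(+) and 7.69, 7.79, 7.72, 7.77 and 7.88 in VD(−). VD(+) replicate 3 lay below the rest of its group, and the lowest VD(−) array equalled the highest VD(+) values to 2 decimals. The log2 fold change of Ndufs7 was 0.12 (limma, adjusted p = 0.754, SE 0.067, exact permutation p = 0.0317). Ndufs3 had 0.12 on its brighter probe set (SE 0.073) and 0.12 on the other, and Ndufv2 had 0.11 (SE 0.086). Ndufs1, which passes electrons on from the flavin, had −0.0046 (SE 0.071), and its sign turned with the choice of arrays.

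The acyl carrier protein Ndufab1 sits in both arms of complex I and also serves mitochondrial fatty acid synthesis. It had the smallest p of all members. Its log2 values were 7.99, 8.29, 8.12, 8.10 and 8.20 in VD(+) and 8.40, 8.38, 8.32, 8.41 and 8.39 in VD(−). The groups did not overlap, and the VD(−) arrays lay closer together (8.38 ± 0.035, SD, n = 5) than the VD(+) arrays (8.14 ± 0.11, SD, n = 5). Ndufab1 was the 1 member of 43 whose groups did not overlap, where 1.09% of all genes were higher in this way. Its log2 fold change was 0.24 (limma, adjusted p = 0.476, SE 0.069), and the exact permutation p was 0.00794, the smallest that 5 arrays against 5 can give. A second probe set of the gene had a log2 fold change of 0.22 (limma, adjusted p = 0.637, SE 0.086) with groups that overlapped. Without the 3 arrays with Y-linked signal the log2 fold change was 0.21. A processed copy, Ndufab1-ps, is listed in RefSeq, and how its transcripts share these probes is not given.

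The accessory subunits surround the core and stabilise it. All 9 of the matrix arm lay above 0, with a median of 0.11, and 0 passed a nominal p under 0.05. Ndufa5 had the highest log2 fold change among them, 0.18 (SE 0.095), and Ndufv3, which attaches to the flavin-binding end, the lowest, 0.068 (SE 0.099). Ndufs6, a zinc-binding subunit, had 0.15 (SE 0.11) and Ndufs4, whose loss in mice causes a disease like Leigh syndrome, had 0.079 (SE 0.12). In both of these VD(−) replicate 3 lay well below the rest of its group, at 8.57 and 9.28. Ndufa6, one of the subunits that hold the acyl carrier Ndufab1 in place, had 0.11 (SE 0.10), and Ndufa9, which binds NADPH, had 0.12 (SE 0.12). The other 3 were Ndufa7 with 0.13 (SE 0.088), Ndufa2 with 0.11 (SE 0.079) and Ndufa12 with 0.093 (SE 0.095).

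The 18 accessory subunits of the membrane arm had a median log2 fold change of 0.10, 16 lay above 0, and 0 passed a nominal p under 0.05 on the brighter probe set. Ndufb2 had the highest fold change with the widest error (0.25, SE 0.18), as its values ran from 7.37 in VD(+) replicate 1 to 8.52 in VD(−) pool 1. Ndufb5 had 0.21 (SE 0.15), with VD(+) replicate 1 at 7.96 and the other VD(+) arrays at 8.53 to 8.69. Ndufc2, which lies beside Ndufc1 where the arms join, had 0.14 (SE 0.10). Ndufb9, the other subunit that holds an acyl carrier, had 0.11 (SE 0.10), like its counterpart Ndufa6 of the matrix arm. The 2 members encoded on the X chromosome were Ndufb11, with 0.11 on one probe set (SE 0.09) and 0.15 on the other (SE 0.076), and Ndufa1, with 0.073 (SE 0.093). Ndufa11 had 0.075 on one probe set (SE 0.085) and 0.094 on the other (SE 0.081). Between 0.038 and 0.12 lay Ndufa3, Ndufb3, Ndufb6, Ndufa10, a subunit related to nucleoside kinases, and Ndufb8, with standard errors of 0.082 to 0.11.

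Some subunits of the membrane arm face the intermembrane space and share a fold held by disulfide bonds. Of these, Ndufb7 had a log2 fold change of 0.10 (SE 0.067) with an exact permutation p of 0.0397, and its VD(−) arrays spanned only 10.63 to 10.69. Ndufa8 had 0.09 (SE 0.074) and Ndufs5 had 0.082 (SE 0.11). Ndufb10, of the same kind, was the lowest of all 43 members, with −0.054 (SE 0.072). Its values ran from 9.10 to 9.28 in VD(+), 4 of the 5 VD(−) arrays lay between 9.10 and 9.29, and VD(−) replicate 3 was the lowest of all 10, so that the groups overlapped almost throughout. Ndufa13, also known as GRIM-19, was the other member of the membrane arm below 0, with −0.022 (SE 0.067). Neither passed a nominal p under 0.05, and both lay above 0 in the pools alone.

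Ndufc1, a small subunit of the membrane arm, was the 1 gene whose probe sets gave different calls. The brighter probe set read 8.27, 8.66, 8.37, 8.54 and 8.51 in VD(+) and 8.40, 8.75, 8.49, 8.79 and 8.58 in VD(−). The groups overlapped widely, and the log2 fold change was 0.13 (limma, adjusted p = 0.821, SE 0.10). The dimmer probe set read 5.50, 6.09, 5.57, 5.87 and 5.87 in VD(+) and 6.12, 6.30, 6.06, 6.31 and 6.03 in VD(−). There the overlap came from VD(+) replicate 2 alone, the log2 fold change was 0.38 (limma, adjusted p = 0.537, SE 0.12, exact permutation p = 0.0238) and a nominal p under 0.05 was passed. The 4 other genes with 2 probe sets had the same sign and the same nominal call on both. The panels of single probe sets show both readings of Ndufc1 beside the 4 members with a nominal p under 0.05.

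**Figure D3:**
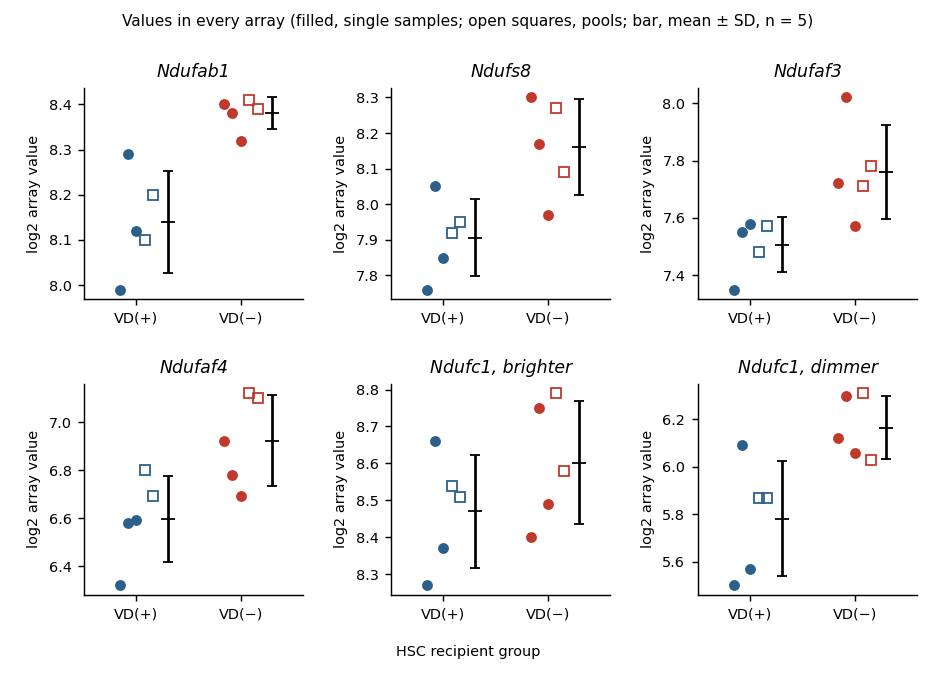
Log2 array values of Ndufab1, Ndufs8, Ndufaf3, Ndufaf4 and both Ndufc1 probe sets in each VD(+) and VD(−) HSC recipient array, with single samples as filled circles, pools as open squares and the mean ± SD (n = 5) as a bar. Each panel has its own axis, which does not start at 0, and only for Ndufab1 do all VD(−) arrays lie above all VD(+) arrays.

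The Ndufaf assembly factors build parts of complex I in the matrix and the inner membrane. All 7 measured factors lay above 0, and their median log2 fold change was 0.23, against 0.11 over the 34 subunits, of which 31 lay above 0. At a nominal p under 0.05 2 of 7 factors and 2 of 34 subunits (5.88%) were higher, and the share of the subunits was near the 4.05% of all genes. Ndufaf4, which acts with Ndufaf3 early in assembly, had the largest fold change of all members. Its log2 values were 6.32, 6.58, 6.59, 6.80 and 6.69 in VD(+) and 6.92, 6.78, 6.69, 7.12 and 7.10 in VD(−). VD(+) replicate 1 was the lowest array and the VD(−) pools were the highest, with overlap between VD(+) pool 1 and the VD(−) replicates 2 and 3, and VD(+) pool 2 equal to VD(−) replicate 3 to 2 decimals. The log2 fold change was 0.33 (limma, adjusted p = 0.579, SE 0.11, exact permutation p = 0.0317). It was 0.14 without the 3 arrays with Y-linked signal and the nominal p was then no longer under 0.05. Ndufaf3 read 7.35, 7.55, 7.58, 7.48 and 7.57 in VD(+) and 7.72, 8.02, 7.57, 7.71 and 7.78 in VD(−). Only VD(−) replicate 3 fell within the VD(+) range, and VD(−) replicate 2 stood highest. The log2 fold change of Ndufaf3 was 0.26 (limma, adjusted p = 0.579, SE 0.089, exact permutation p = 0.0159).

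The other 5 factors did not pass a nominal p under 0.05. Ndufaf2, which is related in sequence to the subunit Ndufa12 and binds before it, had a log2 fold change of 0.25 (SE 0.11). Ndufaf6 had 0.23 (SE 0.11, exact permutation p = 0.0397), with VD(+) replicate 2 at 4.78 and VD(−) replicate 2 at 5.52 as its lowest and highest values. Ndufaf7, a methyltransferase, had 0.22 (SE 0.12), and Ndufaf5, which hydroxylates Ndufs7, had 0.15 (SE 0.093). Without the arrays with Y-linked signal Ndufaf7 had 0.027 and Ndufaf5 had 0.13. Ndufaf1, which works in assembly of the membrane arm, had 0.10 (SE 0.13), and its sign turned to −0.004 without VD(+) replicate 1, which read 6.62 where the other 9 arrays lay between 6.96 and 7.40. For Ndufaf1, Ndufaf2, Ndufaf4, Ndufaf5 and Ndufaf7, as for Ndufaf3, VD(+) replicate 1 held the lowest value of the 10 arrays.

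The mean deviation of the 7 assembly factors from their means over the 10 arrays was −0.36, −0.086, −0.054, −0.028 and −0.024 in VD(+) and 0.12, 0.14, −0.051, 0.23 and 0.11 in VD(−). That of the 34 subunits was −0.23, 0.024, −0.059, −0.034 and 0.019 in VD(+) and 0.095, 0.10, −0.13, 0.18 and 0.032 in VD(−). In both lists VD(−) replicate 3 lay among the VD(+) arrays, so that the groups overlapped. The assembly factor mean less the subunit mean of the same array was −0.13, −0.11, 0.005, 0.0059 and −0.042 in VD(+) and 0.024, 0.038, 0.078, 0.052 and 0.075 in VD(−). Taken within each array in this way, the 5 VD(−) arrays lay above the 5 VD(+) arrays, by a narrow margin (lowest VD(−) 0.024, highest VD(+) 0.0059). The largest difference was in VD(−) replicate 3, where both means lay below 0 and that of the subunits lay lower. The same difference for 11 assembly factors of complex I with other symbols overlapped between the groups, from −0.035 to 0.075 in VD(+) and from −0.054 to 0.066 in VD(−). How often other gene lists of this size separate in this way was not tested. The comparison is a description with no test, since the lists were drawn up with results of these arrays known. The difference of the medians was 0.12, and between 0.096 and 0.14 when single arrays were left out. The values of the assembly factors lay between 4.78 and 8.02 and those of the subunits between 6.48 and 10.69, which are levels of different probes, and whether the range of the signal has a part in the difference was not tested. By their mean over the 10 arrays, genes below 6 had a median log2 fold change of −0.01, those from 6 to 8 of 0.022 and those of 8 and above of 0.019. In these ranges 46.2%, 57.5% and 57.4% of all genes lay above 0. The members in the same ranges, 3, 12 and 28 genes, had medians of 0.15, 0.12 and 0.11, and 3, 11 and 26 of them lay above 0.

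**Figure D4:**
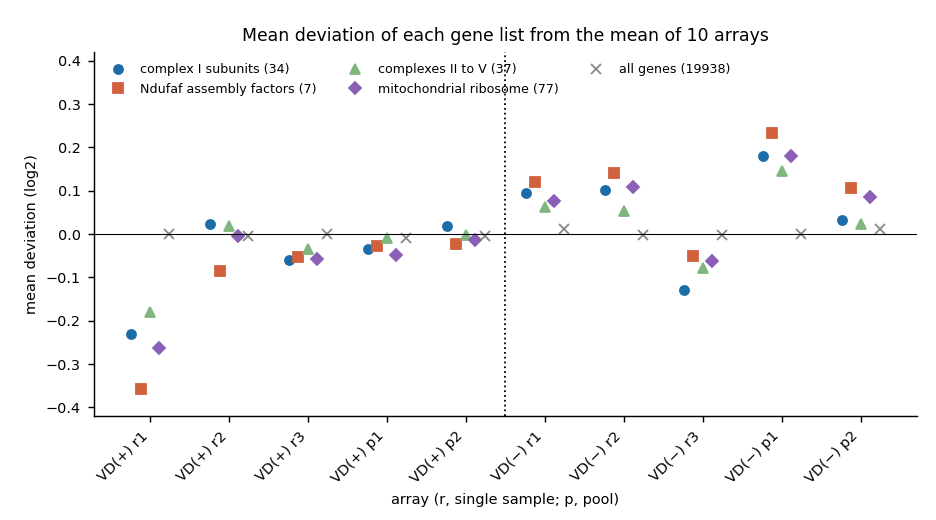
Mean deviation from the mean over the 10 arrays, on the log2 scale, for the complex I subunits, the Ndufaf assembly factors, respiratory complexes II to V, the mitochondrial ribosome and all genes, in each array. All lists but that of all genes were lowest in VD(+) replicate 1 and highest in VD(−) pool 1, and VD(−) replicate 3 lay among the VD(+) arrays.

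Ndufa4 and Ndufa4l2 carry the family's symbol without being complex I subunits. Ndufa4 had a log2 fold change of 0.12 (SE 0.095), like the median of the members. Ndufa4l2, known as a target of hypoxia signalling, lay below the array medians of 4.74 to 4.80 in all 10 arrays, with 3.85 to 4.15 in VD(+) and 3.83 to 4.70 in VD(−), where replicate 2 was the highest. Its log2 fold change was 0.14 (SE 0.15) over all arrays and 0.48 without the 3 arrays with Y-linked signal, where replicates 2 and 3 are the 2 VD(−) arrays left.

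Of the other genes that serve the same pathway, 11 further assembly factors of complex I had a median log2 fold change of 0.12, 9 lay above 0, and 2 passed a nominal p under 0.05, both higher, where 4.05% of all genes were. These were Dmac1, a factor of the distal membrane arm, with 0.24 (limma, adjusted p = 0.547, SE 0.077), and Acad9, an acyl-CoA dehydrogenase that assists the membrane arm, with 0.23 (limma, adjusted p = 0.668, SE 0.093). Timmdc1, which acts in the same process, had 0.20 (SE 0.11). The 37 measured genes of respiratory complexes II to V had a median of 0.062, with 33 above 0 and 4 higher at a nominal p under 0.05. Among them were Atp5g1 and Atp5g2, which encode the ring subunit of ATP synthase, with 0.20 (SE 0.065) and 0.17 (SE 0.073), and Uqcr11 of complex III, with 0.30 (SE 0.098). The 77 genes of the mitochondrial ribosome, which makes the mitochondrially encoded complex I subunits among others, had a median of 0.16, with 72 above 0 and 16 higher at a nominal p under 0.05. Mrps18b had 0.41 (SE 0.11), Mrpl50 0.36 (SE 0.11) and Mrps6 0.30 (SE 0.099). In these 3 lists 0 genes passed an adjusted p under 0.05, and all those with a nominal p under 0.05 were on the higher side. Without VD(+) replicate 1 the median of the mitochondrial ribosome was 0.12 and that of complexes II to V 0.041, and without the arrays with Y-linked signal they were 0.081 and 0.017.

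Among 11 measured regulators of nuclear respiratory genes the median was 0.027, with 9 above 0 and 0 past a nominal p under 0.05 in either direction. Gabpa, the DNA-binding part of GABP, had 0.11 (SE 0.071), Tfam, which packs and transcribes mitochondrial DNA, had 0.15 (SE 0.11), and Esrrg of the ERR family had 0.14 (SE 0.11) at values of 3.53 to 4.12, below the array medians. Ppargc1a, the coactivator PGC1α of the study's pathway, had −0.11 (SE 0.13), the lowest of the list, at 3.43 to 4.14, also below the array medians. The study reports activation of its PGC1α network in recipient BM by quantitative RT-PCR as well, a measure that these arrays do not hold. Nrf1 had 0.083 (SE 0.073) and Esrra 0.0044 (SE 0.12). Ppargc1a, Nrf1 and Esrra were named after their values were seen. Probe sets that list an Nduf symbol among several genes are not among the members. They were 1 for Ndufs5 and its pseudogene, with 0.18 (SE 0.13), and 2 for Ndufb4 and Ndufb4b, with 0.16 (SE 0.09) and 0.14 (SE 0.091). Of the 7 mitochondrially encoded subunits 0 were measured by name. Of the members, Ndufb5, Ndufb11, Ndufab1, Ndufaf3, Ndufaf4, Ndufc1 and Ndufs7 were drawn by the study in a network chosen on these arrays, so their direction is not independent evidence.

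**Figure D5:**
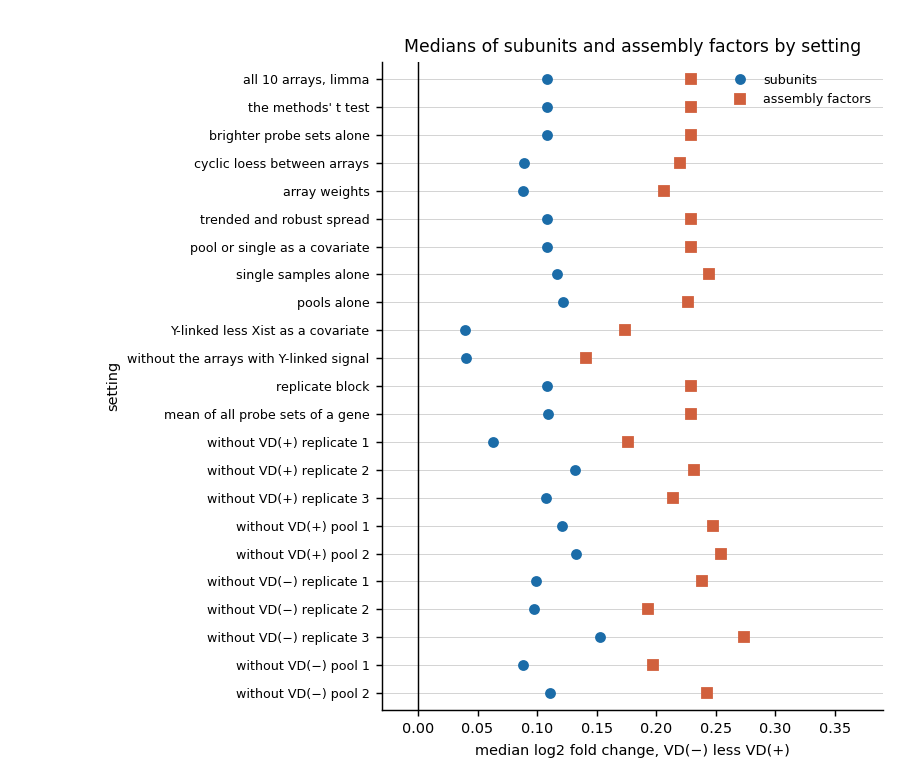
Median log2 fold change, VD(−) less VD(+), of the 34 subunits (circles) and the 7 assembly factors (squares) under each setting of the analysis, one per row. All medians lie above 0 and the assembly factors above the subunits, and the lowest are those that leave out or adjust for Y-linked signal, at 0.039 and 0.041 for subunits.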

How the data were processed

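The 10 arrays carry BM RNA of recipient mice and were grouped by the sample labels, 5 as VD(−) and 5 as VD(+). The deposited values are log2 values made by the authors with RMA, per the submitters' processing notes, in Partek, per the methods. RMA makes array distributions alike, which removes differences in total RNA. A miRNA array is named in the methods, but the 35556 probe sets of the table are those of a whole-transcript gene array. Its genome build and filters were not given in the sources used here, and 0 columns went unused. Array medians were 4.74 to 4.80, and precision is limited by the number of arrays.

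Of the probe sets, 21789 list 1 gene, 1621 several and 12146 none. All 48 Nduf probe sets were matched by gene identifier to RefSeq, and 0 symbols changed. Members and lists were chosen with earlier results of these data known, so lists are described by counts and medians. VD(−) was compared with VD(+) by limma 3.58.1 (lmFit, then eBayes, R 4.3.3), two-sided, on all probe sets, with Benjamini-Hochberg adjustment, and single members also with a two-sided exact permutation test. The procedure was tested on simulated data. Named were all members with a nominal p under 0.05, the Nduf genes of the study's network, core subunits, Ndufaf factors, the 3 members furthest below 0, members whose probe sets disagree, Ndufa4 and Ndufa4l2, and the 3 genes with the smallest p of each other list. The remaining members were named so that each is accounted for, and those singled out among them (such as Ndufb2 and Ndufb7) after their values were seen.

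Alternatives were the brighter probe sets, the methods' t-test, cyclic loess, array weights, and a trended and robust spread. Others were pool or single as a covariate, single samples or pools alone, and a replicate block. Y-linked signal less Xist was used as a covariate, and the arrays with Y-linked signal were left out. Further ones were the mean of a gene's probe sets, Ndufa4 and Ndufa4l2 as subunits, and each array left out.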

Additional observations from a re-analysis of the deposited data

Results flagged for a closer look

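In a group of 5 arrays, a value was looked at again where the gap between the highest or lowest array and its nearest neighbour took an unusually large share of the group's range by Dixon's test. This held for 13 of 90 groups tested, and chance alone marks about 1 in 20, or 4.5 of them. The groups are not independent, since members shift together from array to array, so the 2 counts cannot be weighed against each other. VD(+) replicate 1 was the array set apart, on the low side, for Ndufa4 (0.71 of the range), Ndufaf5 (0.793), Ndufb5 (0.783), Ndufb9 (0.785), Ndufc2 (0.791) and Ndufs4 (0.784), and for the mean of the assembly factors (0.813), where it read 6.23 and the other VD(+) arrays 6.50 to 6.56. VD(−) replicate 3 was set apart, also on the low side, for Ndufa7 (0.755) and Ndufs6 (0.761). VD(+) replicate 2 was high for Ndufa1 (0.755), VD(−) pool 1 for Ndufaf2 (0.741) and VD(−) replicate 2 for Ndufaf6 (0.873), while VD(+) replicate 3 was low for Ndufs7 (0.911). No cause was tested.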

How the results depend on the processing

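No member passed an adjusted p under 0.05 in limma under any alternative run, and none had a nominal p under 0.05 on the lower side. The medians stayed above 0 in all alternatives, between 0.039 and 0.15 for subunits and between 0.14 and 0.27 for assembly factors. The number of members higher at a nominal p under 0.05 was 4. It was 3 with Y-linked signal as a covariate, 2 in single samples alone, 1 in the pools alone and 1 without the arrays with Y-linked signal. With single arrays left out it lay between 4 and 7, the 7 without VD(−) replicate 3. At the thresholds of the methods it was 3, and 1 with cyclic loess, 1 with array weights, 1 in the pools alone and 1 without the arrays with Y-linked signal. With single arrays left out it lay between 1, without VD(+) replicate 1, and 5, without VD(+) replicate 2, VD(+) pool 2 or VD(−) replicate 3. With Y-linked signal as a covariate 32 of 43 members lay above 0 and 8 turned below it, namely Ndufa1, Ndufa9, Ndufa10, Ndufa11, Ndufa12, Ndufaf1, Ndufb8 and Ndufs4. Without the arrays with Y-linked signal 34 lay above 0 and 6 of these 8 turned, all but Ndufa1 and Ndufaf1. Among the genes followed singly, directions turned in the pools alone for Ndufa13 (0.011) and Ndufb10 (0.053), in single samples alone for Ndufs1 (0.014), and with Y-linked signal as a covariate for Ndufaf1 (−0.0065). With single arrays left out, Ndufa13 lay between −0.042 and 0.015, positive without VD(−) replicate 3, Ndufaf1 between −0.004 and 0.15, negative without VD(+) replicate 1, and Ndufs1 between −0.039 and 0.023, positive in 5 of 10 cases. The cause was not tested.

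The replicate block gave the same 4 members at a nominal p under 0.05 and changed no call. No pairing by number was seen, as deviations of same-numbered arrays correlated at −0.063 to 0.13 and 1 of 5 numbers matched its own best. Such a check cannot show that same-numbered arrays share nothing.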
